A study of Caenorhabditis elegans with 2 samples.

Results

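The 45 genes described here encode subunits of the mitochondrial respiratory chain and of ATP synthase, together with assembly factors of cytochrome c oxidase. They are the nuclear protein-coding genes of Caenorhabditis elegans whose symbols begin with nuo-, cox-, ucr-, cyc-, sdha-, sdhb-, sdhd-, atp-, asb- or asg-, plus isp-1, gas-1 and mev-1, and they were found among 19973 such genes in the Ensembl annotation of WBcel235. Binding of the forkhead transcription factor FKH-10 at them was read from ChIP-seq peak lists of whole larvae of stage L1, both sexes pooled and age not given. Both replicates came from the same strain, OP337, which carries the allele unc119(ed3) and the integrated transgene wgIs377, in which fkh-10 is joined to TY1, EGFP and FLAG tags and unc119 serves as the rescuing marker. The single group had 2 biological replicates from separate biosamples and no second condition, so every statement below compares genes within these lists. The regulatory sequence that drives the transgene is not given in the labels, the antibody is named there only by its target, and the possible control experiment they name was not analysed here.

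The respiratory chain passes electrons from NADH (complex I) and succinate (complex II) through coenzyme Q to the cytochrome bc1 complex (complex III), and from there by cytochrome c to cytochrome c oxidase (complex IV). The proton gradient that builds up in this way drives ATP synthase (complex V). Most subunits are encoded in the nucleus, and mutants in several of the genes, among them isp-1, gas-1, mev-1 and nuo-6, are known in this worm for changed lifespan or stress resistance.

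The following 6 windows show the sequence under the peaks, 1 for each complex that had an optimal peak at a member and 1 for the assembly factors. In complexes I, II and III and among the assembly factors it is the window of the strongest optimal peak at a member. In complexes IV and V it is that of the peak next in signal, since the stronger peaks at cox-5B and atp-1 are described below without sequence. Each window reaches 100 bp to each side of the summit and was read from the RefSeq copy of WBcel235 (the coordinates of ce11) along the strand of the gene. Capitals mark CCGCCC, one of the words searched, and GAGAC, a word noticed in these windows afterwards, on either strand; the sdha-1 window holds neither.
nuo-1 (complex I, chrII:11097441-11097641, plus strand): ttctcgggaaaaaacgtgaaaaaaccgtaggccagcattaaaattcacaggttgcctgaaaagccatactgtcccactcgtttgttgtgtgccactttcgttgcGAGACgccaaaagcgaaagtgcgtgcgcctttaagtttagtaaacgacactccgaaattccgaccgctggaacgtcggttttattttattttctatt
sdha-1 (complex II, chrX:8546158-8546358, minus strand): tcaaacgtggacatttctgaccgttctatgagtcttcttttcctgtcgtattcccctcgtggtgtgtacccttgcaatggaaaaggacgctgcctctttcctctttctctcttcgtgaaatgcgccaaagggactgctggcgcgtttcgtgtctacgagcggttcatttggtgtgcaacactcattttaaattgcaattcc
ucr-2.2 (complex III, chrX:15173563-15173763, plus strand): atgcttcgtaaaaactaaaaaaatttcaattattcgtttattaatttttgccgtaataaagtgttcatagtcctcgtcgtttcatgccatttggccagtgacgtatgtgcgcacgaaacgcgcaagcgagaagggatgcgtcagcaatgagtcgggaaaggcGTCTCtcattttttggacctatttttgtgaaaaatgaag
cox-5A (complex IV, chrIII:12905100-12905300, plus strand): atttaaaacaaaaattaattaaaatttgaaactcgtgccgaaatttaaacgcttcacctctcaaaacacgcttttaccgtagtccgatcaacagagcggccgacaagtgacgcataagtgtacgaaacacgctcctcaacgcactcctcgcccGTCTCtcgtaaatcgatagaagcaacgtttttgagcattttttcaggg
cox-14 (complex IV assembly, chrIII:10218672-10218872, plus strand): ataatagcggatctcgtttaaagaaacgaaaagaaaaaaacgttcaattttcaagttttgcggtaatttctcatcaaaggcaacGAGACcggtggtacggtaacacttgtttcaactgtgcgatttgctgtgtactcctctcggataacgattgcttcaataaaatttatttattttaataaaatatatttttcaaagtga
atp-2 (complex V, chrIII:5228062-5228262, plus strand): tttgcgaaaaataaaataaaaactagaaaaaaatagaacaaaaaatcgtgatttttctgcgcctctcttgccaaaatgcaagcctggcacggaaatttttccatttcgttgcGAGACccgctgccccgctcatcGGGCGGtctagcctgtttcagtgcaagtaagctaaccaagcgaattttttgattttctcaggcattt

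A gene was counted when the summit of a peak lay between 1000 bp upstream and 200 bp downstream of its annotated start. In the optimal set, the authors' 2602 peaks that passed the irreproducible discovery rate (IDR) threshold, 14 of the 45 members had such a summit (31.1%, exact 95% interval 18.2 to 46.6%), against 6.38% of all nuclear protein-coding genes. In the pooled list of 19924 peaks, 26 of 45 did (57.8%), against 28.0% of all genes. The 2602 peaks of highest signal in replicate 1 reached 10 members (22.2%, background 5.91%) and those of replicate 2 reached 15 (33.3%, background 6.57%). Complex IV subunits had an optimal summit at 4 of 7 genes, complex V at 4 of 9, complex II at 2 of 5, complex III at 2 of 7 and complex I at 1 of 7. The cytochrome oxidase assembly factors had 1 of 8 and the cytochrome c genes 0 of 2. These counts hold only genes with the symbols named above. Complex I subunit genes with other symbols are in a separate list further below, so 1 of 7 is not the share of the whole complex. The exact 95% interval was 18.4 to 90.1% for complex IV and 0.361 to 57.9% for complex I, and the intervals of all complexes overlapped. The intervals cover the sampling of genes alone, and genes that share a promoter are not independent.

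**Figure D1:**
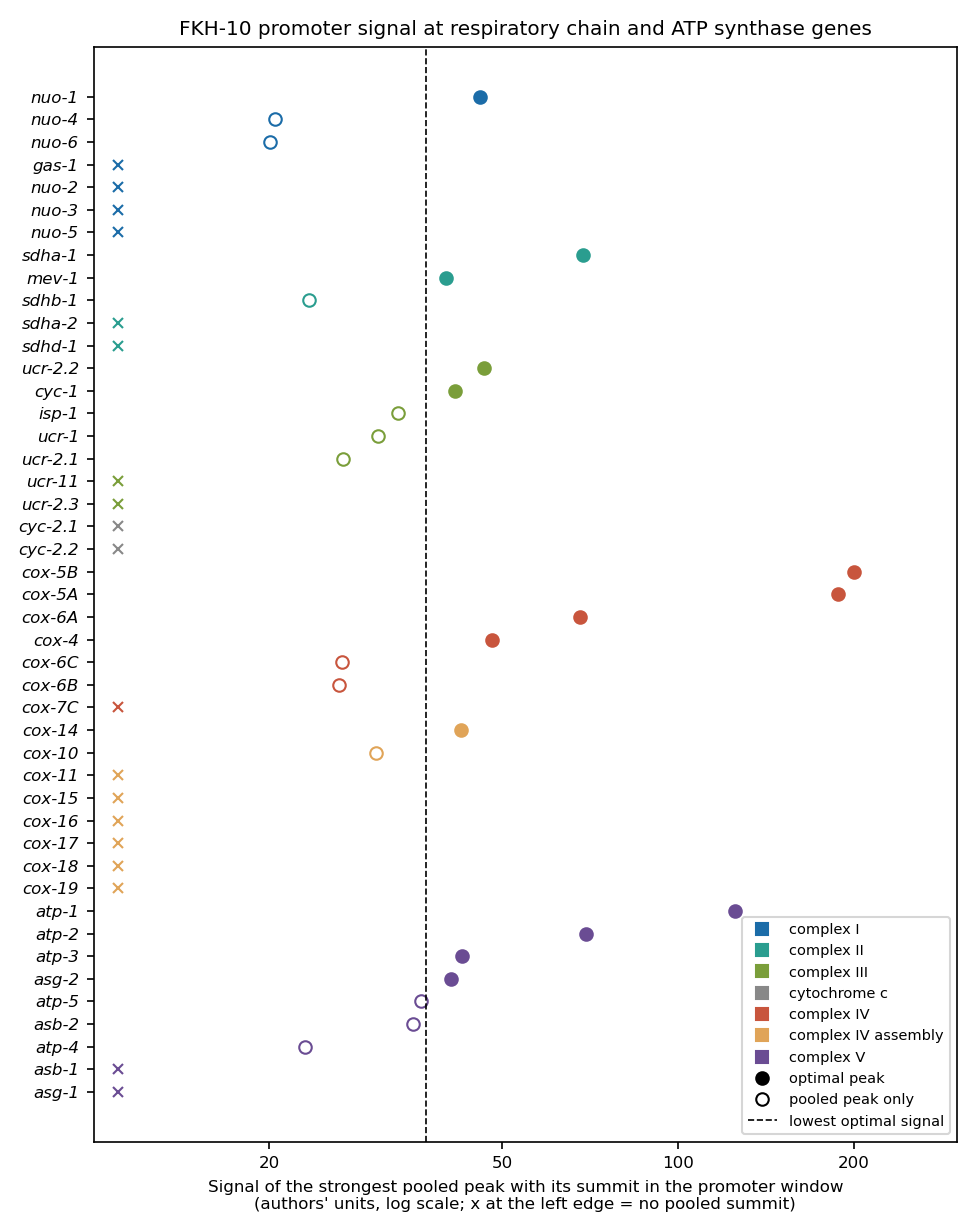
Strongest pooled promoter signal (authors' units, log scale) for each of the 45 members, coloured by complex; filled points are optimal peaks, open points pooled peaks below the optimal set, and crosses members with no pooled summit. The 14 filled points run from 40.1 (mev-1) to 200.2 (cox-5B), and the dashed line marks the lowest optimal signal, 37.02.

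Signals are the values the authors gave each peak, on an unstated scale and without an error, and read depth is unknown. Because the lists are scaled separately, the replicate values of each optimal peak at a member are given with ranks. These ranks are among the 28842 peaks of replicate 1 and the 28896 of replicate 2. Most pooled peaks below the optimal set are given by their pooled signal alone. Nearly all pooled peaks have the same width of 376 bp, and 99.1% have their summit at the centre, against 93.4% in the optimal set. At members the peaks of cox-5B, cox-5A and atp-1 are narrower (200, 188 and 164 bp), with summits off the centre. How summits were placed is not given, so a position is not read to the base.

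Complex IV held the strongest peaks of the set. Most optimal peaks at members were modest: the median strongest optimal signal was 47.4 over the 14 members, against 61.7 over all 1275 genes with one. In the pooled list the order was the reverse, with medians of 40.5 over 26 members and 19.5 over 5588 genes. Optimal peaks are the highest of that list and were at 14 of the 26 members, against 1275 of the 5588 genes. The pooled medians thus partly restate the counts above. Cytochrome c oxidase is the terminal oxidase of the chain, and its cox-5A and cox-5B genes encode nuclear subunits around the catalytic core. At cox-5B (chromosome I, 9788725 to 9790050, plus strand) the optimal signal was 200.2, with 106 in replicate 1 and 96.8 in replicate 2, at ranks 50 and 44. Its summit lay 25 bp upstream of the start, in a peak of 200 bp. At cox-5A (chromosome III, 12905491 to 12906619, plus strand) the signal was 187.9, with 88.1 in replicate 1 and 100.4 in replicate 2, at ranks 95 and 39. The summit was 291 bp upstream, between protein-coding genes, in a peak of 188 bp. Both peaks were thus within rank 95 of each replicate list, and neither summit lay in the window of another gene.

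The other subunit genes of complex IV were weaker. The cox-6A peak (gene at chromosome III, 5081724 to 5082995, plus strand) had a signal of 67.8, with 34.7 and 29.4 in replicates 1 and 2, at ranks 1196 and 1282. It had the summit farthest from its start, 773 bp upstream. That summit was 53 bp from the snRNA gene F54D8.7. At cox-4 (chromosome I, 13658171 to 13659128, minus strand) the signal was 48.1, with 21.05 and 27.6 in the replicates, at ranks 2740 and 1428. The cox-4 summit was 418 bp upstream of the start. The cox-6C gene had only a pooled peak, with a signal of 26.6, and cox-7C had none.

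For cox-6B the annotated start decided the count. The gene has 2 annotated transcripts whose starts lie 86539 bp apart on chromosome III. At the first, at 2699663, only a pooled peak of 26.3 was listed, 717 bp upstream. The second begins at 2786202, and 146 bp upstream of it stood an optimal peak (2785963 to 2786136) with a signal of 156.6, at rank 123 in replicate 1 (79.5) and rank 99 in replicate 2 (76.9). The same summit lay in the promoter windows of nduc-2, a complex I subunit gene with another kind of symbol, and of Y71H2AM.20. With every transcript start allowed, complex IV had 5 of 7 genes with an optimal summit, and 7.12% of all genes had one.

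ATP synthase genes with an optimal peak included those of the catalytic head, the stalk and the membrane part of the enzyme. At atp-1 (chromosome I, 12652277 to 12654655, plus strand), which encodes the alpha subunit of the head, the optimal signal was 125, with 65.2 in replicate 1 and 55.4 in replicate 2, at ranks 249 and 298. The summit was 3 bp downstream of the start, in an intron or untranslated part of the gene, and 193 bp upstream of the divergent gene mcrs-1. At atp-2 (chromosome III, 5228417 to 5230536, plus strand), the gene of the catalytic beta subunit whose window is printed above, the signal was 69.7. The replicates gave 40.1 and 29.0, at ranks 920 and 1312. The summit was 255 bp upstream and also in the windows of C34E10.10 and C34E10.12.

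The other ATP synthase genes with an optimal peak had lower signals. The atp-3 gene (chromosome I, 5428533 to 5429908, minus strand), for the subunit that joins stalk and head, had a signal of 42.6 at 5 bp downstream of the start, in an intron or untranslated part and 254 bp upstream of F27C1.2. The replicates gave 13.8 in replicate 1 (rank 7065) and 26.3 in replicate 2 (rank 1528). The asg-2 gene (chromosome X, 6841258 to 6842121, plus strand), for a g subunit of the membrane part, had 40.9. The replicates gave 26.8 and 21.4, at ranks 1816 and 2046. Its summit was 203 bp upstream of asg-2 and 335 bp upstream of glr-6. Pooled peaks below the optimal set were listed at atp-5 (36.3), asb-2 (35.1) and atp-4 (22.97). At atp-5 replicate 1 had 23.2 (rank 2317) and replicate 2 only 6.19 (rank 17590), so this gene was reached by the highest peaks of replicate 1 and not by those of replicate 2. The asb-2 peak had 16.7 (rank 4318) and 18.7 (rank 2462), the reverse order. The asb-1 and asg-1 genes had no pooled promoter summit.

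**Figure D2:**
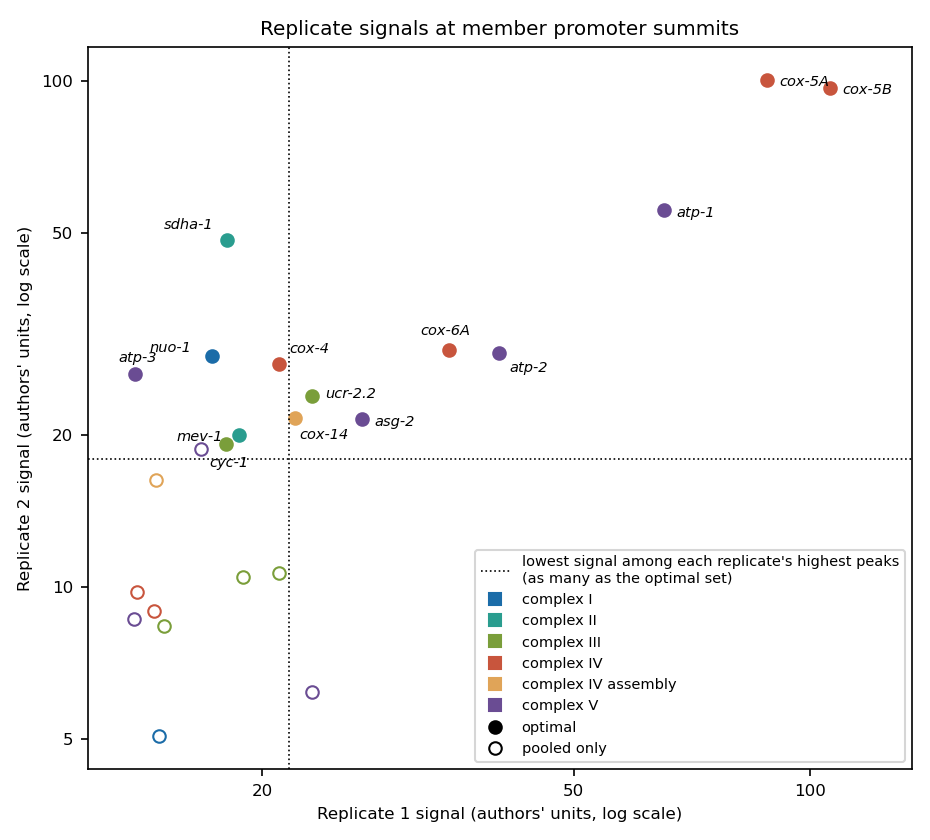
Signals of replicates 1 and 2 (authors' units, log scales) at the 24 members whose pooled promoter summit has a peak within 100 bp in both replicate lists, coloured by complex. All 14 optimal members (filled) lie above the dotted horizontal line at 17.9, the lowest signal among the 2602 highest peaks of replicate 2, while atp-3, nuo-1, sdha-1, cyc-1, mev-1 and cox-4 lie left of the vertical line at 21.7, its counterpart in replicate 1.

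Complex II is also an enzyme of the citric acid cycle. Its flavoprotein gene sdha-1 (chromosome X, 8542757 to 8546021, minus strand) had an optimal signal of 68.9, 237 bp upstream of the start. In replicate 2 the peak had 48.5 (rank 443), and in replicate 1 the nearest peak had 18.03 (rank 3643), while the strongest replicate 1 peak overlapping it had 25.1. The summit was 54 bp from the snoRNA gene D2021.6. The membrane anchor gene mev-1 (chromosome III, 10334277 to 10335168, plus strand) had 40.1, with 18.7 and 20.001 in the replicates, at ranks 3393 and 2266. Its summit lay 130 bp upstream, almost midway to the divergent gene jmjd-4. The iron-sulfur subunit gene sdhb-1 had a pooled peak of 23.4, and sdhd-1 and sdha-2 had none. No replicate 2 peak had its summit within 100 bp of the sdhb-1 summit, though one of 7.94 overlapped that peak.

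In complex III the optimal peaks were at ucr-2.2 and cyc-1. The ucr-2.2 gene (chromosome X, 15173904 to 15178145, plus strand), for a core protein, had a signal of 46.6, 241 bp upstream. The replicates gave 23.2 (rank 2313) and 23.8 (rank 1778). The cytochrome c1 gene cyc-1 (chromosome I, 8022674 to 8024422, minus strand) had 41.5, with 18.01 (rank 3653) and 19.1 (rank 2395), 326 bp upstream. Pooled peaks stood at isp-1, the Rieske iron-sulfur protein gene (33.2), at the core protein gene ucr-1 (30.7) and at ucr-2.1 (26.7). No pooled promoter summit was listed at ucr-2.3 or ucr-11.

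Complex I, the NADH dehydrogenase, had a single optimal peak among its 7 members. It lay 296 bp upstream of nuo-1 (chromosome II, 11097837 to 11100146, plus strand), the gene of the flavin-binding subunit, and 337 bp upstream of the divergent ribosomal protein gene rpl-36.A. Its signal was 45.8, with 17.3 in replicate 1 (rank 4007) and 28.5 in replicate 2 (rank 1341). The genes nuo-4 and nuo-6 had pooled peaks of 20.4 and 20.02, and nuo-6 had no replicate 1 peak within 100 bp of that summit. The genes nuo-2, nuo-3, nuo-5 and gas-1 had no pooled promoter summit. Further complex I genes carry other symbols and are not among these 7. Of those, nduc-2 and nduf-2.2 had an optimal promoter peak, and such genes were counted in a separate list below.

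Among the 8 assembly factors 1 had an optimal promoter summit (12.5%, beside 6.38% of all genes) and 2 had a pooled one (25%, beside 28.0%). The cox-14 gene (chromosome III, 10218942 to 10222825, plus strand) had an optimal peak of 42.5, with 22.1 and 21.5 in the replicates, at ranks 2532 and 2038. Its summit lay 170 bp upstream of its start and 126 bp upstream of the divergent gene rde-4, which acts in RNA interference. The cox-10 gene, for a heme synthesis enzyme, had a pooled peak of 30.4. No pooled promoter summit was listed at cox-11, cox-15, cox-16, cox-17, cox-18 or cox-19, nor at the cytochrome c genes cyc-2.1 and cyc-2.2.

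Of the 19 members with no pooled promoter summit, 9 had none in either replicate list, 5 had a peak in both, 4 in replicate 1 alone and 1 in replicate 2 alone. The matching shares over all genes were not computed, so these counts are not read as a trait of the members. The members nearest the optimal threshold were mev-1 (40.1) and asg-2 (40.9) inside and atp-5 (36.3) and asb-2 (35.1) outside it. At the edges of the promoter window, the nearest optimal summits inside were those of atp-3 and atp-1, at 5 and 3 bp downstream of the start, and the nearest optimal ones outside were at -1053 bp for cyc-2.1 and -1273 bp for ucr-11. Pooled summits outside lay at 231 bp for asb-2 and 283 bp for nuo-4, which each had another inside, and at -1175 bp for nuo-5, which had none inside.

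Of the 6 groups of close relatives examined, 5 differed between their copies, and in the other, cyc-2.1 and cyc-2.2, neither gene had a promoter peak. In 4 groups a copy on chromosome X had a pooled or optimal promoter peak while a copy on an autosome had neither. Over all genes 28.0% had a pooled one. The X-linked asb-2 had 35.1 and the autosomal asb-1, a form of the b subunit known from the germ line, had none. The X-linked asg-2 (40.9), ucr-2.2 (46.6) with ucr-2.1 (26.7), and sdha-1 (68.9) stood likewise beside asg-1, ucr-2.3 and sdha-2, which had none. The reverse held for the gene of a core subunit of complex I, where the X-linked gas-1 had no promoter peak and its relative nduf-2.2 on chromosome III had an optimal peak of 67.1 (replicates 35.0 and 27.8), 784 bp upstream. The lists of single replicates did hold promoter summits at asb-1 (11.05 in replicate 1, 4.81 in replicate 2). In replicate 1 they also held them at asg-1 (14.2) and sdha-2 (10.3), where ucr-2.1 had 14.98 and asb-2 16.7. By chromosome, an optimal summit was listed at 3 of 6 members on X (7.18% of all protein-coding genes there), 5 of 11 on III (9.32%), 5 of 12 on I (8.65%) and 1 of 5 on II (5.36%). None was listed at the 6 members on IV (6.19%) or the 5 on V (3.92%). No difference between chromosomes was tested, and the shares on X, III and I were close to each other.

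Optimal summits at members lay mostly a short way upstream of the start. The median position was -239 bp, with a range from -773 to 5 bp, and 9 of 14 lay within 300 bp upstream. Over the 1275 genes with an optimal promoter summit the median was -259 bp, and 665 (52.2%) lay within that distance. Both summits downstream of a start belonged to ATP synthase genes, atp-1 and atp-3. In 7 of the 14 cases the summit also fell in the window of another protein-coding gene, against 45.9% of all 1275, so that the peak cannot be assigned to the member alone. A small RNA gene lay within 500 bp of the summit at 2 of the 14, cox-6A and sdha-1, against 4.71% of all.

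**Figure D3:**
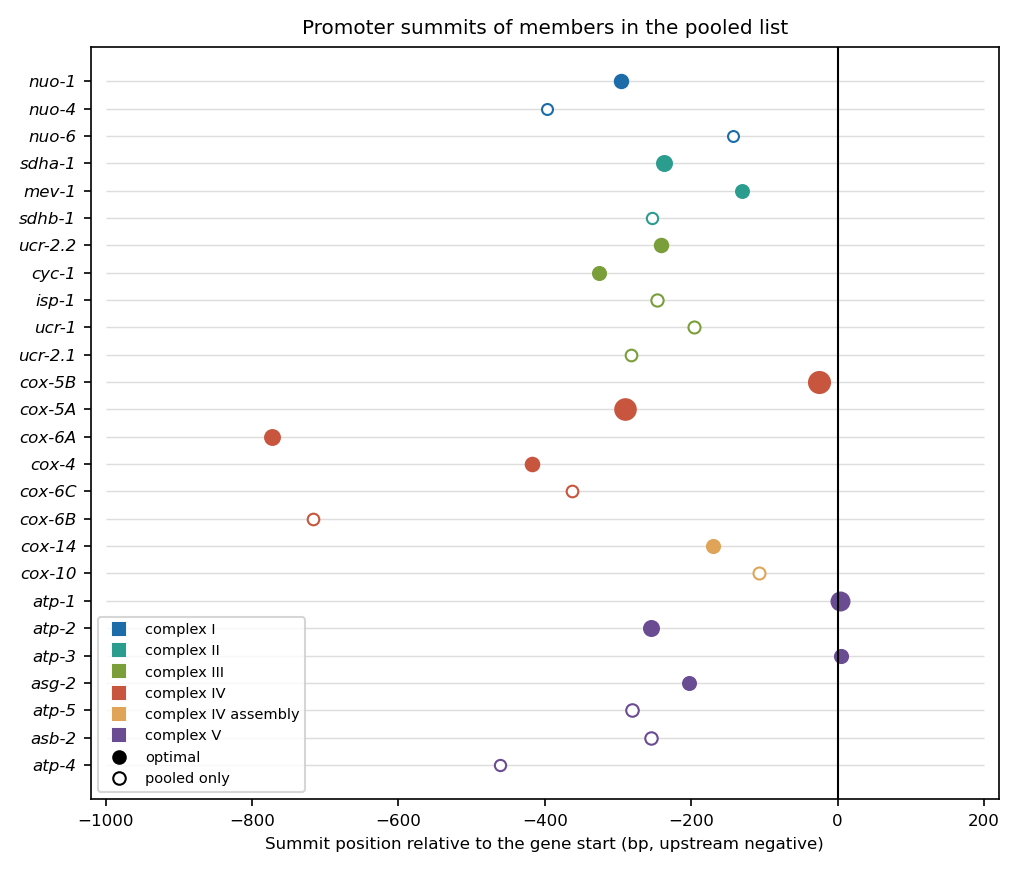
Position of the pooled summit relative to the annotated gene start (bp, upstream negative) for the 26 members with one, coloured by complex; filled points are optimal and larger points have higher signal. Most summits lie between cox-10 at -107 and atp-4 at -461 bp, with cox-6A and cox-6B farther out and atp-1, atp-3 and cox-5B at the start.

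Members were also grouped by their neighbour upstream. Many worm genes lie in operons, where genes follow each other closely on a strand and are transcribed from the promoter of the first. Operon membership was not looked up here, and the distance was read from the annotation. For 11 members the nearest protein-coding gene upstream was on the same strand and ended within 150 bp of the start: nuo-2, nuo-4, nuo-5, ucr-11, cyc-2.1, cox-11, cox-15, cox-17, cox-18, cox-19 and atp-4. None of these 11 had an optimal promoter summit, a count that allows a share of up to 27.3%. A pooled one was listed at 2, atp-4 and nuo-4 (18.2%, beside 21.9% of all genes in that position). The atp-4 summit lay in an intron or untranslated part of alh-4, and the nuo-4 summit in a coding exon of rnp-7. Of the 9 members with a same-strand gene farther upstream 5 had an optimal summit, and of the 25 with a neighbour on the opposite strand 9 had one. Over all genes the shares with an optimal summit in these classes were 2.64%, 4.07% and 9.41%. The distance of 150 bp was chosen after the values were seen, and with 500 bp the close class had 16 members, 3 of them with an optimal summit (18.8%, beside 3.49% of all genes in that class).

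For 4 of the 11 members an optimal peak stood at the first gene of the close run instead. The cytochrome c gene cyc-2.1 begins 111 bp after rpl-20, whose promoter peak had a signal of 290.2, 287 bp upstream of rpl-20 and 1053 bp upstream of cyc-2.1. The cox-18 gene follows Y55F3AR.2, with a peak of 134.1 lying 3092 bp upstream of cox-18. The nuo-4 gene follows rnp-7 and syf-2, with a peak of 81.4 at syf-2, 3742 bp upstream of nuo-4. The ucr-11 gene follows dad-1, with a peak of 64.4 that is 1273 bp upstream of ucr-11. Among all 1588 genes in such a position, 269 (16.9%) had an optimal summit at the first gene of their run.

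**Figure D4:**
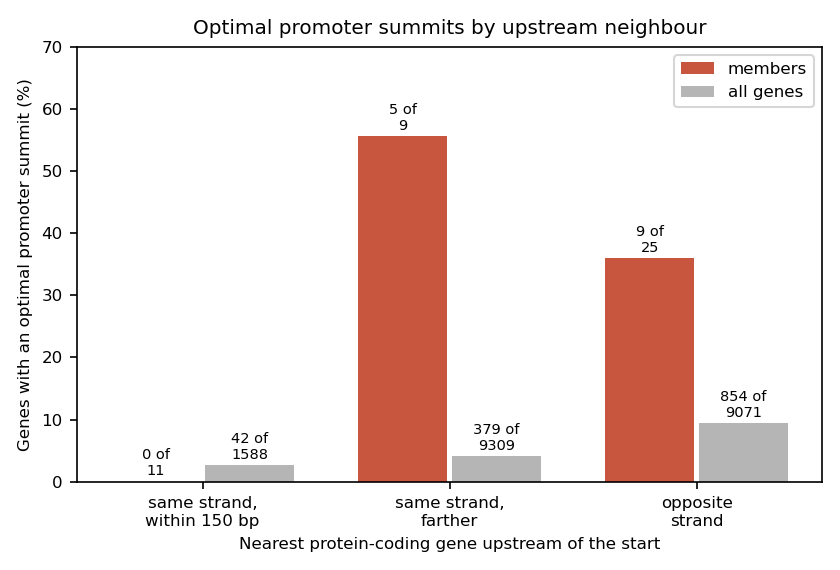
Share of genes with an optimal promoter summit (%), for members (red) and all nuclear protein-coding genes (grey), by the strand and distance of the nearest protein-coding gene upstream; counts stand above the bars. Members close behind a same-strand gene had 0 of 11, the other same-strand members 5 of 9 and those with an opposite-strand neighbour 9 of 25.

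The words searched in the summit windows of the 14 members were 7, each sought on both strands. The forkhead word TGTTTAC occurred in 0 of the 14 windows, against 2.60% of the 1000 optimal summits in promoters and 3.49% of stretches of the same length just upstream of all gene starts. The repeat GAGAGAGA was also in 0 of 14, against 8.50% of optimal promoter summits and 2.75% of upstream stretches. The GATA word TGATAA was in 0 of 14, against 6.90% and 22.8% of these sets. The E-box CACGTG was in 0 of 14, against 4.6% and 4.23%, and a count of 0 in 14 allows up to 21.4%. The looser E-box, of which that word is a case, was searched as CANNTG and occurred in 10 of 14 (54.6% of optimal promoter summits, 51.3% of upstream stretches). A run of TTTTTTTT was in 3 of 14, against 14.7% and 26.4%.

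CCGCCC occurred in 4 of the 14 windows, at atp-1, atp-2, atp-3 and mev-1, against 112 of the 1000 optimal promoter summits and 6.01% of sequences upstream of all starts. In all 4 it was preceded by A. The longer word ACCGCCC, examined for that reason after the windows were seen, was present at 1.80% of optimal promoter summits and 1.06% of upstream sequences. Its setting at the 2 members whose sequence is shown here, along the strand of the word (capitals), is as follows.
atp-2 (chrIII:5228181-5228217, minus strand): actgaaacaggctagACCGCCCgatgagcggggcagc
mev-1 (chrIII:10334211-10334247, plus strand): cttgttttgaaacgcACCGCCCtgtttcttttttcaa

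The middle of the word lay 37 bp from the summit at atp-2 and 82 bp from it at mev-1. GAGAC, also chosen after the windows were seen, occurred in 10 of 14 members' windows, in 51.4% of optimal promoter summits and in 24.1% of upstream sequences. G and C made up 32.8 to 51.2% of the members' windows, with middle values of 41.3 and 42.3%. The upper of the middle values was 43.3% at all optimal promoter summits, and the median was 32.8% upstream of all starts. A match describes these letters only, and its part in binding was not tested.

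Other genes of the pathway were counted in the same way. Respiratory chain and ATP synthase subunits with other symbols, the inhibitor genes mai-1 and mai-2 included, had an optimal promoter summit at 10 of 37 genes (27.0%), the strongest being the nduc-2 peak shared with cox-6B. Assembly factors with other symbols had 2 of 11, led by the copper chaperone gene sco-1 with a signal of 121 (replicates 66.3 and 56.4). Pyruvate dehydrogenase and citric acid cycle genes had 6 of 20, led by dld-1, for dihydrolipoamide dehydrogenase, with 147.8. Mitochondrial import and prohibitin genes had 6 of 20, led by the chaperonin gene hsp-60 with 180.8, and mitochondrial carriers and channels 3 of 10, led by F01G4.6 with 114.8. Coenzyme Q genes had 0 of 10, which allows up to 30.0%, and 2 of the 10 had a pooled summit (20%, beside 28.0% of all genes). Genes for mitochondrial ribosomal proteins had 11 of 70 (15.7%), led by mrps-7 with 114.6, and vacuolar ATPase genes 5 of 20, led by vha-12 with 101.7. No difference between any of these lists and the members was tested.

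**Figure D5:**
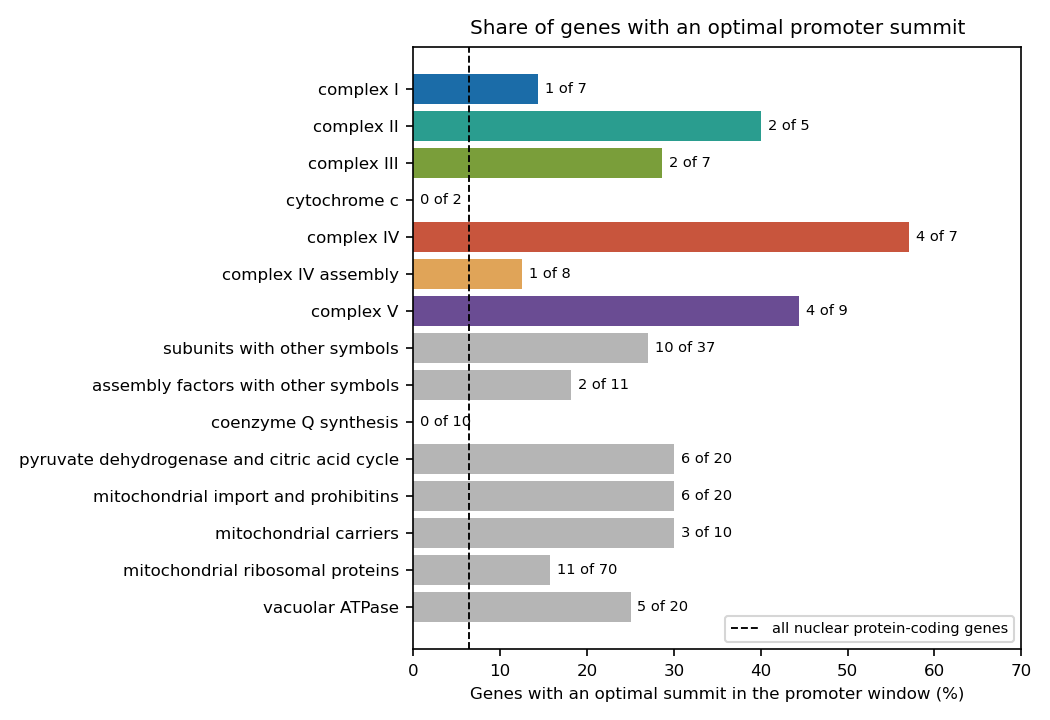
Share of genes with an optimal promoter summit (%) among the members of each complex (coloured) and in the other lists (grey), with counts beside the bars. Complex I genes with other symbols are in the grey list of subunits with other symbols. The dashed line is the 6.38% of all nuclear protein-coding genes; complex IV is at 4 of 7 and the cytochrome c and coenzyme Q genes are at 0.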

How the data were processed

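FKH-10 ChIP-seq peak lists of 2 biological replicates of L1 larvae were used as deposited on ce11. Per the text files deposited with the samples, the authors derived them from alignments and a control; the signal value of each peak is the authors' and its scale is not stated. Lists were called per replicate and on the pooled replicates, and the optimal set was thresholded by IDR; what was used to align reads and call peaks, with which versions and threshold, is not given in the sources used here. Each of the 2602 optimal peaks is in the pooled list, and they are its highest. The ce10 lists were not used. Read depth is unknown.

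Summits (peak start plus offset, written from 1) were assigned to protein-coding genes of Ensembl release 115 on 6 chromosomes; all peaks lie within the chromosome lengths of the RefSeq copy. Replicate peaks were paired by the nearest summit within 100 bp. No tests between conditions or gene lists were made; intervals are exact binomial (Clopper-Pearson), and the limit given with a count of 0 is 3 divided by the number of genes or windows. Python 3.11.15, numpy 2.4.6, scipy 1.17.1 and matplotlib 3.10.9 were used, and promoter assignment was tested on simulated summits. All members are named; in other lists the gene of highest signal is. The members and lists were chosen with earlier results of these data known. Of the symbols listed for the other pathway genes, 13 matched no nuclear protein-coding gene and were left out. Alternatives covered the window, the start, the assignment, the peak set and each replicate alone.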

Additional observations from a re-analysis of the deposited data

How the results depend on the processing

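The count of 14 members with an optimal promoter summit was 13 with the window of 500 bp upstream and 100 bp downstream, 16 with 2000 bp upstream and 500 bp downstream (adding cyc-2.1 and ucr-11), 15 with any transcript start, 15 with any overlap of the peak, and 13 with each summit given to the nearest start (background 4.88%, 8.93%, 7.12%, 6.97% and 10.3% of all genes). It fell to 6 among the optimal peaks above the median signal (background 3.25%), where cox-5B, cox-5A, cox-6A, atp-1, atp-2 and sdha-1 remained, and to 9 among optimal peaks found in the highest peaks of both replicates (background 4.63%). With 1 replicate alone it ranged from 10 to 15; without replicate 2 the members atp-3, cox-4, cyc-1, mev-1 and nuo-1 were lost and atp-5 gained, and without replicate 1 asb-2 was gained. Above the median signal complexes I, II, III and V had 0, 1, 0 and 2 and the assembly factors 0; among peaks of both replicates complexes I, II and III had 0, 1 and 1; with the nearest start complex II had 1 and the assembly factors 0. Cytochrome c genes had 1 with the long window and 1 with any overlap. With 1 replicate alone complex I ranged from 0 to 1, complex II from 1 to 2, complex III from 1 to 2 and complex V from 4 to 5. With the short window, subunits with other symbols had 5 of 37 and other assembly factors 1 of 11. Within 50 bp of the summit CANNTG was found at 6 of 14, against 36.1% of all optimal promoter summits and 29.5% of upstream stretches of that length. TTTTTTTT was found there at 0 of 14, against 4.4% and 15.1%. The cause of these changes was not tested.

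The 26 members with a pooled summit became 24 with a summit in both replicates, 24 with the short window and 31 with the long one, while the share of all genes moved from 28.0% to 13%, 18.7% and 42.1%. When 500 bp counted as close, 3 of 16 members close behind a same-strand gene had an optimal summit (3.49% of all genes in that class). Genes per complex are few, and signals carry no error or depth. No paired analysis was possible because there is only 1 group.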
